A study of Mus musculus with 30 samples.

Results

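The mitochondrial ribosomal protein genes studied here are those whose symbol is Mrpl or Mrps followed by a number, and each was read from a probe set annotated to that single gene. There were 74 such genes among the 18820 genes measured in mouse liver, 25 coding for proteins of the small subunit and 48 for proteins of the large subunit. The remaining gene, *Mrps36*, carries the family name but codes for a protein linked to the α-ketoglutarate dehydrogenase complex and not for a ribosomal protein. *Mrps6*, *Mrpl24*, *Mrpl43* and *Mrpl53* lay only on probe sets shared with other genes and were not used here.

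The mitochondrial ribosome translates the few messenger RNAs that mitochondrial DNA encodes, all of them for subunits of the respiratory chain and of ATP synthase. Its ribosomal RNAs come from mitochondrial DNA, whereas every one of its proteins is encoded in the nucleus, made in the cytosol and imported, so that an assembled particle needs many separately transcribed genes. Liver is rich in mitochondria, and during fasting or on a ketogenic diet its mitochondria oxidise fatty acids and make ketone bodies, a programme controlled by the nuclear receptor PPARα. The liver-enriched transcription factor CREB3L3 (also called CREBH) has been implicated in glucose and lipid metabolism of the liver.

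Gene expression was measured on whole-transcript arrays, 1 array per liver, in 30 male mice of about 8 weeks of age. On a ketogenic diet for 4 days without a final fast were 4 combined PPARα/CREB3L3−/−, 3 PPARα−/−, 4 CREB3L3−/− and 4 wild-type (WT) mice, and after a 16 h fast there were again 4, 3, 4 and 4 mice of the same genotypes. WT mice were C57BL/6. PPARα−/− mice (B6;129S4-Ppara tm1Gonz/J) and CREB3L3−/− mice had been backcrossed and were interbred to give the combined knockout. The knockouts are present in the whole body and not in the liver alone, and no group on ordinary chow was part of the comparison, so each value below is relative to another fasted or ketogenic group.

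Arrays within a group correlated with each other at 0.978 to 0.990 over all probe sets. *Creb3l3* itself lay at a log2 level of 4.29 to 5.36 in livers carrying the CREB3L3 deletion and at 9.49 to 11.28 in the other livers. The *Ppara* signal was 6.62 to 9.35 in livers carrying the PPARα deletion 10.08 to 10.54 in WT livers, and, with the gene intact, 8.01 to 8.99 in ketogenic and 9.51 to 10.03 in fasted CREB3L3−/− livers; the deletion is partial, so this probe set is no check of that genotype. RNA came from whole liver, in which fewer cells of a type and less RNA per cell cannot be told apart.

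All 74 genes entered the fit, and each had a mean signal above the median of every array. The mean log2 signal of a gene over 30 arrays ran between 5.36 (*Mrps36*) and 9.19 (*Mrpl30*) with a median of 7.73, whereas the median of all probe sets of an array was 4.22 to 4.38. The median of the 74 genes within each liver was 7.73 to 7.88 in ketogenic combined knockouts, 7.82 to 7.91 in ketogenic PPARα−/−, 7.52 to 7.61 in ketogenic CREB3L3−/− and 7.66 to 7.83 in ketogenic WT mice. In the fasted groups it was 7.47 to 7.55 in combined knockouts, 7.48 to 7.58 in PPARα−/− mice. Fasted CREB3L3−/− livers lay at 7.60 to 7.65 and fasted WT livers at 7.60 to 7.72. The livers of the fasted combined and PPARα−/− groups therefore all lay below those of fasted WT mice, and on the ketogenic diet the CREB3L3−/− livers all lay below the WT livers.

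**Figure D1:**
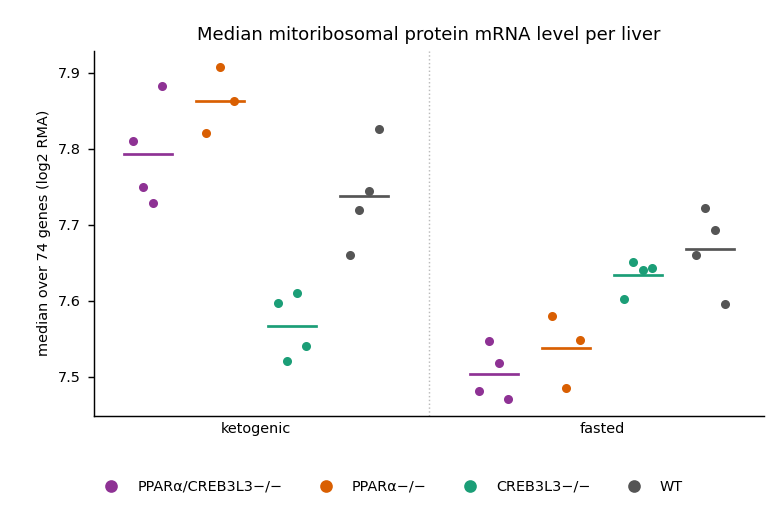
Median log2 signal of the 74 mitochondrial ribosomal protein genes in each liver (y axis, log2 units), by genotype with the ketogenic groups left of the fasted groups; each point is 1 liver and the short line is the group mean. Fasted combined knockout livers sit at 7.47 to 7.55, below the 7.60 to 7.72 of fasted WT livers, and ketogenic CREB3L3−/− livers at 7.52 to 7.61 lie below every other ketogenic liver.

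Promoters of this family are known for sites of nuclear respiratory factor 1, ETS factors such as GABP, and YY1. Of the 74 genes, 65 had a RefSeq window of 300 bases (GRCm38.p6, 250 before to 50 after the annotated start), in all 71 windows, and each motif was searched on both strands. The ETS letters CCGGAAG were found in 33.8% of the windows of the family and in 8.86% of 32851 windows of all genes. The YY1 letters AAGATGGC were found in 16.9% and 2.75%, and the nuclear respiratory factor 1 letters GCGCATGC in 11.3% and 2.71%. The cyclic AMP response element TGACGTCA, the core to which CREB-family factors bind, was present in 2.82% of the family's windows (*Mrpl16* and *Mrpl49*) and 1.79% of all windows. The E-box CACGTG, bound by MYC among others, stood in 9.86% and 7.15%. Of the family's windows with it, 3 belonged to *Mrpl2*, and by gene it stood in 5 of 65 (7.69%). The direct repeat AGGTCANAGGTCA, 1 exact spelling of the repeat that PPARα recognises, stood in 0 of the 65 genes. It stood in only 13 of all 32851 windows (0.0396%), too few for its absence to set the family apart. These are matches of letters in a short window and not measured binding.

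Shown next are the 160 bases before the annotated start of *Mrpl14* (chr17:45686189-45686348, plus strand), *Mrpl39* (chr16:84735245-84735404, minus strand), *Mrps22* (chr9:98601680-98601839, minus strand) and *Mrpl52* (chr14:54426749-54426908, plus strand), because these genes were called in the same direction in all 3 ketogenic knockouts and differ in their motifs. Sequences are from RefSeq on GRCm38.p6, written 5′ to 3′ on the strand of the gene. Capitals mark a pair of overlapping nuclear respiratory factor 1 matches in *Mrpl39* and an ETS match in *Mrps22* and in *Mrpl52* (in *Mrpl52* on the opposite strand); *Mrpl14* had no match in this stretch.
Mrpl14: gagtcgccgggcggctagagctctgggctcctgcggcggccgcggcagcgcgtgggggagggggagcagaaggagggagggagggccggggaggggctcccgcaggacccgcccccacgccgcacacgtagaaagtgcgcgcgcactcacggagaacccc
Mrpl39: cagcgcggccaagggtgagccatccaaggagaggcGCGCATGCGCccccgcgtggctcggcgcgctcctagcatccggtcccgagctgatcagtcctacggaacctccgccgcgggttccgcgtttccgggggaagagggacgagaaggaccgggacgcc
Mrps22: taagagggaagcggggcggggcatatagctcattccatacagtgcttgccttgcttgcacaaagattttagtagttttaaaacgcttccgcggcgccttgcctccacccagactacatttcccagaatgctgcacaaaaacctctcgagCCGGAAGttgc
Mrpl52: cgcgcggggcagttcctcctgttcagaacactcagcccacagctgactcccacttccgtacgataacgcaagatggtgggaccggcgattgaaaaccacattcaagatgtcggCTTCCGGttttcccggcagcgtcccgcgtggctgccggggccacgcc

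Another 4 genes, chosen for large differences that were not shared by the 3 ketogenic knockouts, are shown in the same manner: *Mrpl23* (chr7:142532872-142533031, plus strand), *Mrpl49* (chr19:6057756-6057915, minus strand), *Mrpl33* (chr5:31613791-31613950, plus strand) and *Mrpl20* (chr4:155802718-155802877, plus strand). Capitals mark the cyclic AMP response element in *Mrpl49*, the nuclear respiratory factor 1 match in *Mrpl33* and the E-box in *Mrpl20*, and *Mrpl23* had none of the motifs searched.
Mrpl23: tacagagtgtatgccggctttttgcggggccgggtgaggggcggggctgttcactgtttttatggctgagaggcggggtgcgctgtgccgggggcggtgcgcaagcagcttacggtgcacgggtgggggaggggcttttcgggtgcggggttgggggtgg
Mrpl49: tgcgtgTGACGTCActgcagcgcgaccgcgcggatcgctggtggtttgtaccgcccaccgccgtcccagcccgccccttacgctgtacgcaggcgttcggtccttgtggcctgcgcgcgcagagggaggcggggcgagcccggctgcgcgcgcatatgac
Mrpl33: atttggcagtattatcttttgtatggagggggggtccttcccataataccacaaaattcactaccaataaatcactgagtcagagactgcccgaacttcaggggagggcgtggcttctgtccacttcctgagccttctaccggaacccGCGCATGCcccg
Mrpl20: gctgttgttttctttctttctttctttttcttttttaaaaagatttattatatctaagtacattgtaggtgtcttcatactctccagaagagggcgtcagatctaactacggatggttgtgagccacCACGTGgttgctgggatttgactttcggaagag

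In fasted livers few of the 74 genes differed from WT, and those that did were all lower. A gene was called when limma's moderated test gave P below 0.001 and the fold change was beyond 1.2. In PPARα−/− livers 3 genes were lower and 0 higher, where 2.58% of all genes were called lower and 3.11% higher. The median log2 difference of the family was −0.10 (all genes, −0.007). In combined knockouts 9 were lower and 0 higher (all genes, 3.95% lower and 5.81% higher). The median was −0.17 (all genes, −0.03), and 64 of 74 differences were negative (all genes, 10366 of 18820). In CREB3L3−/− livers 0 genes were called by limma in either direction (all genes, 0.893% lower and 0.648% higher), 2 genes had an unadjusted P under 0.05, and the median of 0.02 took a negative sign under either rescaling of the arrays. The 9 calls of the combined knockout became 3 without replicate 3 of that group or replicate 2 of the fasted WT group, and 5 without replicate 1 of that group or replicate 3 of the fasted WT group. The 3 comparisons share the same 4 fasted WT livers.

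By subunit, the fasted calls in combined knockouts were 8 of 48 large-subunit and 1 of 25 small-subunit genes, and in PPARα−/− livers 3 of 48 and 0 of 25; a difference between subunits was not tested. *Mrpl12*, a stalk protein of the large subunit that also binds the mitochondrial RNA polymerase, measured 8.31, 8.07, 8.02 and 8.36 in fasted combined knockouts, 8.33, 8.37 and 8.31 in PPARα−/−, and 8.77, 8.71, 8.74 and 8.86 in WT livers. Each liver of both PPARα-deficient groups lay below each WT liver. The log2 difference from WT was −0.58 ± 0.086 in combined knockouts (SE; limma adjusted p = 3.74e-05) and −0.43 ± 0.093 in PPARα−/− livers (adjusted p = 0.00493). Fasted CREB3L3−/− livers, at 8.57, 8.63, 8.74 and 8.49, overlapped the WT livers and were not called. A dimmer second probe set of *Mrpl12* gave −0.29 and −0.23 in the combined and PPARα−/− comparisons and was not called in either.

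*Mrpl14*, a large-subunit protein at the interface with the small subunit and the docking site of the assembly factor MALSU1, measured 6.94, 6.82, 6.86 and 7.07 in fasted combined knockouts, 6.65, 6.81 and 6.59 in PPARα−/−, and 7.35, 7.33, 7.29 and 7.32 in WT livers. The groups did not overlap. The log2 difference was −0.40 ± 0.11 in combined knockouts (adjusted p = 0.0132) and −0.64 ± 0.11 in PPARα−/− livers (adjusted p = 0.000806). The first of these kept its call in only 1 of the 8 fits that left out 1 liver of either group.

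*Mrpl15*, another large-subunit protein of bacterial ancestry, completed the set of genes lower in both PPARα-deficient fasted groups. It measured 7.49, 7.22, 7.18 and 7.63 in combined knockouts, 7.34, 7.41 and 7.21 in PPARα−/−, and 7.88, 7.97, 7.81 and 7.73 in WT livers, so that all livers of both PPARα-deficient groups again lay below the WT livers. The log2 differences were −0.47 ± 0.12 in combined knockouts (adjusted p = 0.0112) and −0.53 ± 0.13 in PPARα−/− livers (adjusted p = 0.0151), each kept in 3 of its leave-one-out fits.

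The other genes lower in fasted combined knockouts alone were *Mrpl20* (−0.96 ± 0.26), *Mrpl18* (−0.42 ± 0.086), *Mrpl41* (−0.40 ± 0.098), *Mrpl35* (−0.32 ± 0.087), *Mrpl48* (−0.32 ± 0.084) and the small-subunit gene *Mrps7* (−0.32 ± 0.072), with adjusted p between 0.00151 and 0.0136. *Mrpl20* had the widest spread within groups of the 74 genes: fasted combined knockouts read 7.61, 7.56, 7.64 and 7.56, whereas fasted PPARα−/− livers read 9.28, 8.99 and 7.70 and fasted WT livers 8.46, 8.47, 9.05 and 8.22. Its fasted call held in 1 of 8 leave-one-out fits. Of the 9 genes lower in fasted combined knockouts, 7 were of bacterial ancestry, meaning that they have a counterpart in bacterial ribosomes, and 2 (*Mrpl41* and *Mrpl48*) were mitochondria-specific, the family itself dividing 44 to 29.

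On the ketogenic diet more genes differed from WT, in both directions. In combined knockouts 9 genes were higher and 13 lower (all genes, 7.44% higher and 10.3% lower), and centring each array on its median made this 6 and 18. The median log2 difference was −0.08 (all genes, −0.01), and 47 of 74 differences were negative (all genes, 9799 of 18820). In PPARα−/− livers 10 were higher and 7 lower (all genes, 6.45% and 7.15%). Their median was −0.01 (all genes, −0.006), and 39 of 74 differences were negative (all genes, 9599 of 18820). In CREB3L3−/− livers 4 were higher and 12 lower (all genes, 16.7% and 11.9%). The median was −0.13 (all genes, −0.055), and 47 of 74 differences were negative (all genes, 10728 of 18820). After median centring the medians were −0.14, −0.03 and −0.18 in combined, PPARα−/− and CREB3L3−/− livers (all genes, −0.07, −0.02 and −0.11). The 3 comparisons share the same 4 ketogenic WT livers, so that a WT group that happens to lie high or low enters all of them. When only the compared groups were fitted, the counts higher and lower were 6 and 8 in combined, 7 and 3 in PPARα−/−, and 2 and 6 in CREB3L3−/− livers.

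**Figure D2:**
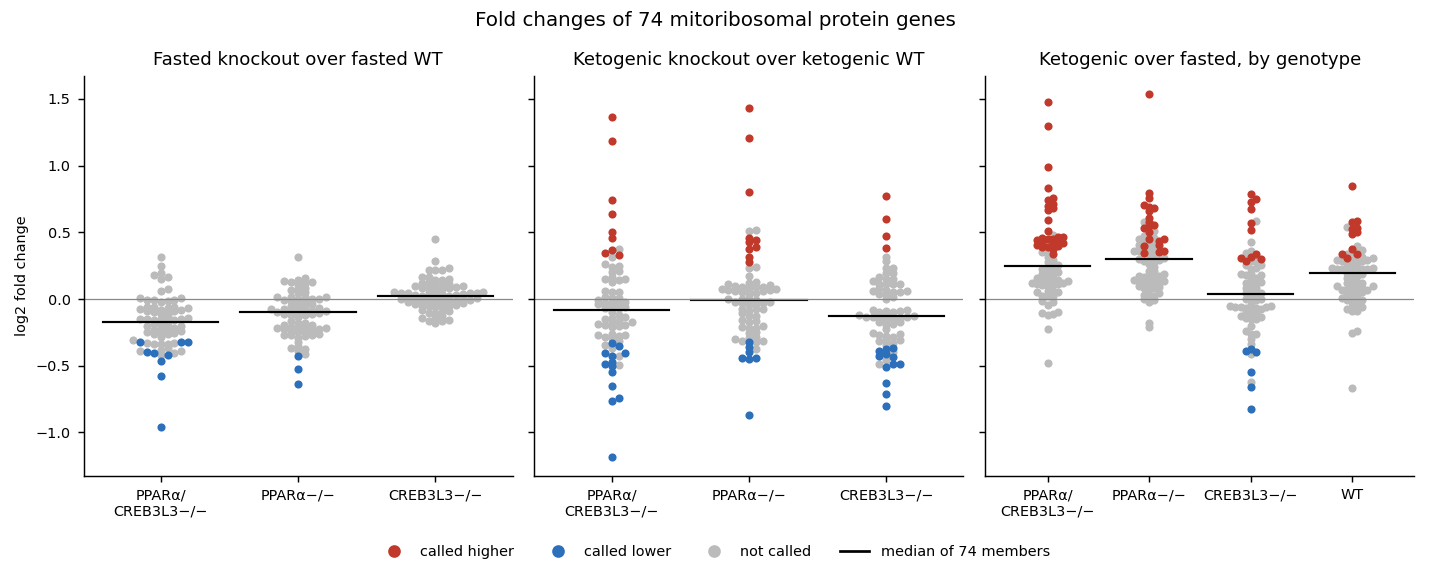
Log2 fold changes (y axis) of the 74 genes for each knockout over WT after fasting (left) and on the ketogenic diet (middle), and for ketogenic over fasted livers of each genotype (right); each point is 1 gene, red and blue points were called higher and lower at P below 0.001 with a fold change beyond 1.2, and black lines are medians. Calls are all on the lower side in fasted PPARα−/− (3) and combined knockout livers (9), and lie on both sides in the ketogenic groups.

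Lower in all 3 ketogenic knockouts were *Mrpl14*, *Mrpl39*, *Mrps7* and *Mrps22*. For *Mrpl14* ketogenic combined knockouts measured 6.89, 7.16, 6.90 and 7.30, PPARα−/− livers 7.34, 7.56 and 7.23, CREB3L3−/− livers 7.54, 7.54, 7.34 and 7.14, and WT livers 7.62, 7.79, 7.95 and 7.94. Every knockout liver lay below every WT liver, and the combined knockouts held the lowest values. The log2 differences were −0.77 ± 0.11 (adjusted p = 3.21e-06) in combined knockouts, −0.45 ± 0.11 (adjusted p = 0.00589) in PPARα−/− and −0.43 ± 0.11 (adjusted p = 0.002) in CREB3L3−/− livers. The call held in each of 8 leave-one-out fits for the combined knockout, in 2 of 7 for PPARα−/− and in 4 of 8 for CREB3L3−/−. With its fasted differences *Mrpl14* was lower in 5 of the 6 knockout comparisons with WT, more than any other of the 74 genes.

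*Mrps22*, a mitochondria-specific protein of the small subunit whose human counterpart is mutated in an inherited mitochondrial translation defect, measured 7.35, 7.26, 7.09 and 7.11 in ketogenic combined knockouts, 7.47, 7.64 and 7.40 in PPARα−/−, 7.45, 7.53, 7.80 and 7.55 in CREB3L3−/−, and 7.71, 7.93, 8.19 and 7.96 in WT livers. Combined and PPARα−/− livers lay below all WT livers, and 1 CREB3L3−/− liver overlapped them. The log2 differences were −0.74 ± 0.096 (adjusted p = 1.09e-06) in combined knockouts, −0.44 ± 0.10 (adjusted p = 0.00285) in PPARα−/− and −0.36 ± 0.096 (adjusted p = 0.00386) in CREB3L3−/− livers. The CREB3L3−/− call held in 2 of 8 leave-one-out fits and the PPARα−/− call in 4 of 7.

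*Mrpl39*, a mitochondria-specific protein of the large subunit, measured 8.50, 8.57, 8.30 and 8.63 in ketogenic combined knockouts, 8.56, 8.62 and 8.42 in PPARα−/−, 8.46, 8.59, 8.72 and 8.48 in CREB3L3−/−, and 8.86, 9.06, 8.99 and 8.99 in WT livers. All knockout livers lay below all WT livers, by −0.47 ± 0.082 in combined, −0.44 ± 0.088 in PPARα−/− and −0.41 ± 0.082 in CREB3L3−/− livers on the log2 scale (adjusted p = 7.35e-05, 0.000596 and 0.000222). *Mrps7*, which binds the small ribosomal RNA, measured 8.86, 8.91, 9.07 and 9.04 in ketogenic combined knockouts, 9.05, 9.11 and 8.85 in PPARα−/−, 9.15, 9.03, 8.95 and 8.92 in CREB3L3−/−, and 9.25, 9.38, 9.54 and 9.45 in WT livers. It was lower by a similar amount in each group, −0.43 ± 0.072, −0.40 ± 0.078 and −0.39 ± 0.072 on the log2 scale. Both genes kept all 3 calls in every leave-one-out fit. In fasted livers *Mrpl39* was not called in any knockout, with 8.60, 8.58, 8.39 and 8.61 in combined knockouts against 8.49, 8.57, 8.57 and 8.32 in WT livers.

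**Figure D3:**
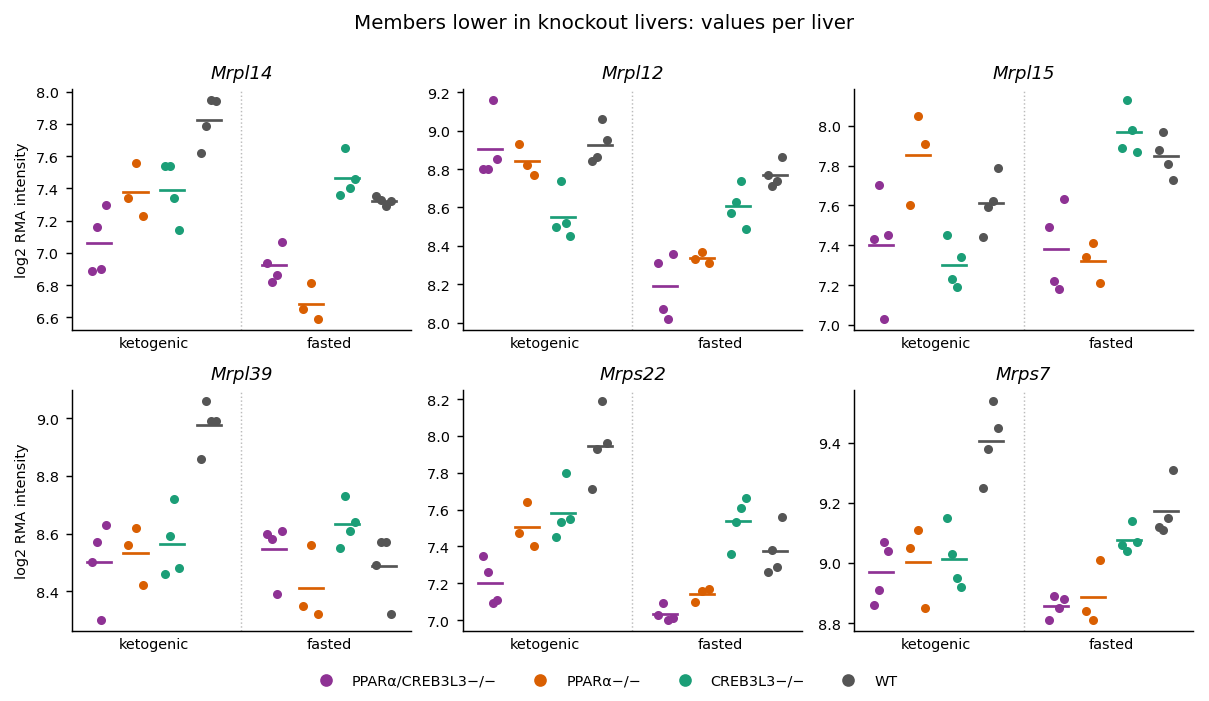
Log2 signal in each liver (y axis, log2 units) of *Mrpl14*, *Mrpl12*, *Mrpl15*, *Mrpl39*, *Mrps22* and *Mrps7*, by genotype with the ketogenic groups left of the fasted groups; points are livers and short lines are group means. For *Mrpl14*, *Mrpl39* and *Mrps7* every ketogenic knockout liver lies below every ketogenic WT liver, whereas *Mrpl12* and *Mrpl15* separate PPARα-deficient from WT livers in the fasted state.

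*Mrpl52*, a mitochondria-specific protein of the large subunit, was the only member higher in all 3 ketogenic knockouts. It measured 9.08, 9.0, 9.14 and 9.10 in combined knockouts, 9.27, 9.13 and 9.06 in PPARα−/−, 9.15, 9.09, 9.26 and 8.89 in CREB3L3−/−, and 8.73, 8.71, 8.71 and 8.70 in WT livers. No knockout liver reached down to the WT livers, and the log2 differences were 0.37 ± 0.081, 0.44 ± 0.088 and 0.38 ± 0.081 (adjusted p = 0.00123, 0.000548 and 0.000453). The combined-knockout call was not kept when arrays were centred on their medians, where the difference was 0.31.

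*Mrpl23*, a protein that lines the exit of the peptide tunnel in the large subunit, showed the largest difference of the family on the ketogenic diet. It measured 8.95, 8.79, 8.65 and 8.84 in combined knockouts, 8.80, 8.90 and 8.92 in PPARα−/−, 7.49, 7.53, 7.71 and 7.58 in CREB3L3−/−, and 7.35, 7.46, 7.56 and 7.39 in WT livers. Livers without PPARα formed a separate high set, and CREB3L3−/− livers overlapped WT livers. The log2 difference from WT was 1.37 ± 0.087 in combined knockouts (adjusted p = 3.96e-12) and 1.43 ± 0.093 in PPARα−/− livers (adjusted p = 1.87e-11), and a second probe set of *Mrpl23* gave 1.37 in both comparisons. In the fasted state the same genotypes read 7.45, 7.33, 7.56 and 7.70 (combined), 7.29, 7.29 and 7.44 (PPARα−/−) and 7.30, 7.35, 7.39 and 7.0 (WT), and neither was called.

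The same arrangement, high in both ketogenic groups without PPARα, was seen in *Mrpl54* and *Mrpl20*. *Mrpl54*, a mitochondria-specific protein of the large subunit, measured 8.67, 8.46, 8.56 and 8.62 in ketogenic combined knockouts, 8.81, 8.52 and 8.57 in PPARα−/−, 8.19, 8.16, 8.01 and 8.25 in CREB3L3−/−, and 7.95, 7.81, 7.76 and 7.82 in WT livers. Its log2 difference was 0.74 ± 0.095 in combined knockouts (adjusted p = 1.01e-06) and 0.80 ± 0.10 in PPARα−/− livers (adjusted p = 1.49e-06). The CREB3L3−/− livers lay between, above each WT liver, but were not called. *Mrpl20*, of bacterial ancestry, measured 9.20, 9.26, 8.75 and 9.07 in ketogenic combined knockouts, 8.91, 9.43 and 8.93 in PPARα−/−, 7.84, 7.87, 8.20 and 7.78 in CREB3L3−/−, and 7.69, 7.72, 7.64 and 8.49 in WT livers. 1 WT liver stood above the others, and all PPARα-deficient livers lay above it, with log2 differences of 1.19 ± 0.26 in combined (adjusted p = 0.000957) and 1.21 ± 0.28 in PPARα−/− livers (adjusted p = 0.00229).

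*Mrpl49*, a mitochondria-specific protein of the large subunit and 1 of the pair of members with a cyclic AMP response element in the window, went the other way. It measured 6.46, 6.77, 6.01 and 6.58 in ketogenic combined knockouts, 6.54, 7.14 and 6.63 in PPARα−/−, 6.82, 7.14, 7.31 and 7.37 in CREB3L3−/−, and 7.49, 7.60, 7.73 and 7.76 in WT livers. All knockout livers were below all WT livers, with the log2 difference reaching −1.19 ± 0.16 in combined knockouts (adjusted p = 1.46e-06) and −0.87 ± 0.17 in PPARα−/− livers (adjusted p = 0.000398), whereas CREB3L3−/− livers did not pass the threshold. *Mrpl16*, the other member with that element, was not called in any ketogenic knockout against WT.

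Among the remaining genes that moved in both PPARα-deficient ketogenic groups, the small-subunit genes *Mrps28* (0.50 and 0.46), *Mrps23* (0.34 and 0.32) and *Mrps17* (0.33 and 0.43) and the large-subunit gene *Mrpl30* (0.46 and 0.39) were higher, each value being the log2 difference in combined and then in PPARα−/− livers. *Mrpl10*, which carries the stalk to which Mrpl12 attaches, was lower (−0.49 and −0.36), as was *Mrps15* (−0.33 and −0.32). In all, 8 genes were called higher in both comparisons, being 8 of the 9 in combined and 8 of the 10 in PPARα−/− livers. Another 7 were called lower in both, being 7 of 13 and 7 of 7. Both comparisons use the same WT livers, and the overlap over all genes was not counted. Called in combined knockouts and not in PPARα−/− livers were *Mrpl38* (−0.65), *Mrps21* (−0.55), *Mrpl34* (−0.50), *Mrps5* (−0.40), *Mrpl18* (−0.40) and *Mrpl32* (−0.36) on the lower side and *Mrps26* (0.63) on the higher. *Mrpl58*, a peptidyl-tRNA hydrolase built into the large subunit that frees stalled ribosomes, was called in PPARα−/− livers only (0.37 ± 0.070). So was *Mrpl40* among those 2 groups (0.28 ± 0.073). The direct comparison of the ketogenic combined with the PPARα−/− livers called only *Mrpl34* (−0.62 ± 0.13), *Mrpl38* (−0.45 ± 0.10) and *Mrps18a* (−0.33 ± 0.083), all lower, where 2.36% of all genes were lower and 1.07% higher, and the 3 calls became 0 without replicate 2 of the PPARα−/− group and 5 without replicate 2 of the combined group.

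In ketogenic CREB3L3−/− livers the 12 lower calls comprised 6 of 25 small-subunit and 6 of 48 large-subunit genes, a difference that was not tested. Of these 12, 6 were also among the 13 lower in combined knockouts and 4 among the 7 lower in PPARα−/− livers. Here too the overlap over all genes was not counted. *Mrps35*, a mitochondria-specific protein, measured 6.60, 6.40, 6.38 and 6.50 in CREB3L3−/−, 6.85, 6.89, 7.28 and 7.25 in combined knockout, 6.93, 7.06 and 6.87 in PPARα−/−, and 7.02, 7.20, 7.43 and 7.42 in WT livers. The CREB3L3−/− livers lay below all others on that diet, −0.80 ± 0.11 from WT (adjusted p = 1.15e-06). *Mrps31*, also mitochondria-specific, measured 7.67, 7.22, 7.58 and 7.54 in CREB3L3−/−, 8.40, 8.34, 8.67 and 8.44 in combined knockout, 8.48, 8.24 and 8.44 in PPARα−/−, and 8.05, 8.24, 8.29 and 8.29 in WT livers, with a log2 difference from WT of −0.71 ± 0.10 (adjusted p = 2.88e-06). Again the CREB3L3−/− livers stood alone at the low end. *Mrps5* (−0.63 ± 0.090) and *Mrps9* (−0.51 ± 0.12), which have bacterial counterparts, were lower too, as were *Mrpl32* (−0.49 ± 0.083), which is cut to its mature form by a protease of the inner membrane, *Mrpl9* (−0.48 ± 0.085), *Mrpl2* (−0.43 ± 0.093), a protein next to the peptidyl transferase centre, and *Mrpl12* (−0.38 ± 0.086). A second probe set of *Mrps5* (−0.66) and of *Mrpl12* (−0.47) was called as well.

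Higher in ketogenic CREB3L3−/− livers were *Mrpl33*, *Mrps25*, *Mrpl40* and *Mrpl52*. *Mrpl33*, a small protein of bacterial ancestry, measured 6.40, 6.56, 7.10 and 6.71 in CREB3L3−/−, 5.95, 5.91, 5.85 and 5.86 in combined knockout, 5.89, 6.19 and 6.04 in PPARα−/−, and 6.07, 5.90, 5.83 and 5.86 in WT livers. Only the CREB3L3−/− livers stood above the range of the other groups, and the log2 difference from WT was 0.78 ± 0.11 (adjusted p = 3.69e-06). *Mrpl40* measured 8.73, 8.70, 8.81 and 8.49 in CREB3L3−/− against 8.27, 8.18, 8.21 and 8.19 in WT livers (0.47 ± 0.067, adjusted p = 2.51e-06). *Mrps25* measured 5.88, 6.66, 6.50 and 6.61 in CREB3L3−/− against 5.87, 5.56, 6.00 and 5.81 in WT livers, with an overlap at the low end. Its difference of 0.60 ± 0.15 (adjusted p = 0.00169) held in 4 of 8 leave-one-out fits.

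**Figure D4:**
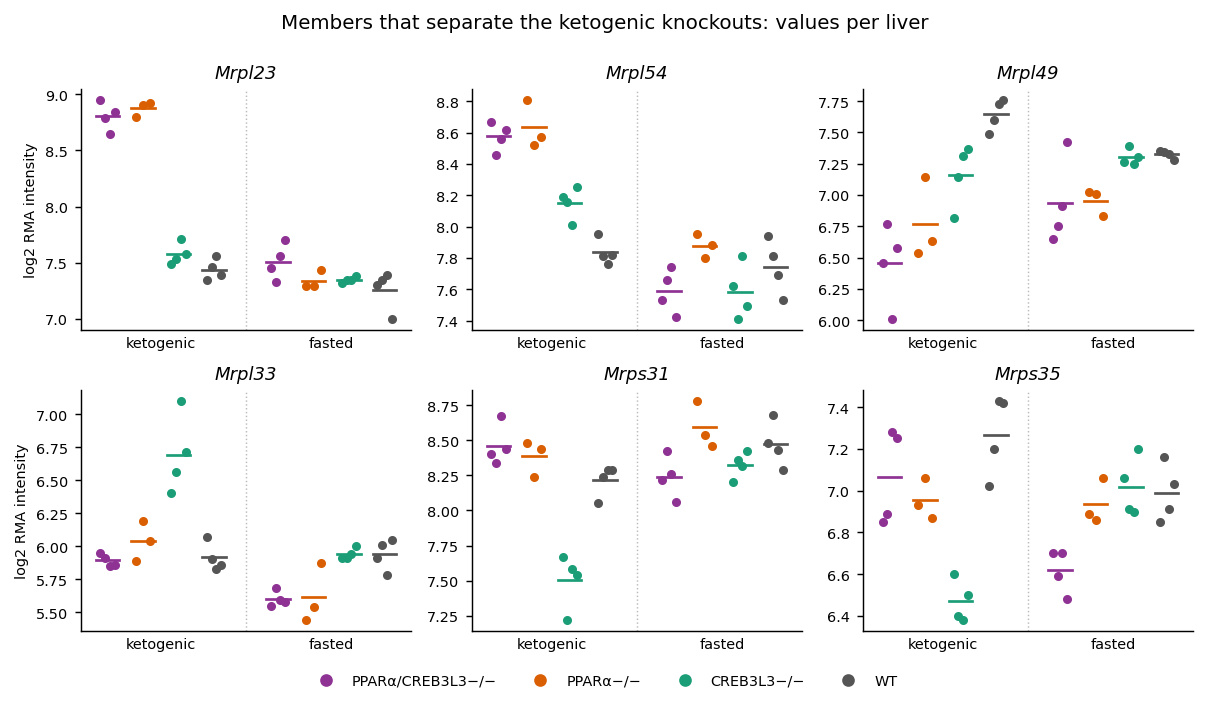
Log2 signal in each liver (y axis, log2 units) of *Mrpl23*, *Mrpl54*, *Mrpl49*, *Mrpl33*, *Mrps31* and *Mrps35*, by genotype with the ketogenic groups left of the fasted groups; points are livers and short lines are group means. *Mrpl23* is at 8.65 to 8.95 in both ketogenic groups without PPARα and at 7.0 to 7.71 in all other livers, whereas among the ketogenic livers those of CREB3L3−/− mice are the highest for *Mrpl33* and the lowest for *Mrps31* and *Mrps35*.

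The ketogenic groups, CREB3L3−/− most of all, also differed in markers of cell types. The mean of 5 measured markers of proliferating cells was 7.39 to 8.41 in these livers, and at most 4.82 in any other liver, where 3 to 5 of the 5 lay below the array median. The mean of 7 macrophage markers was 9.15 to 9.31, against 8.04 to 8.73 in ketogenic WT livers, and that of 6 stellate-cell markers was 7.35 to 7.93, against 6.08 to 6.47. The mean of 7 hepatocyte markers was 11.77 to 12.36, against 12.69 to 12.81 in ketogenic WT livers. Neutrophil markers were at 4.77 to 8.37, against 3.78 to 5.03, whereas those of T and NK cells and of B and plasma cells lay mostly below the array median in every group. The other ketogenic knockouts differed from WT in the opposite direction for macrophage markers, with 7.04 to 7.68 in combined and 7.14 to 7.57 in PPARα−/− livers. Their hepatocyte markers were at 12.34 to 12.52 and 12.42 to 12.45, and those of sinusoidal endothelium at 7.39 to 8.01 and 7.78 to 7.96, against 8.24 to 8.41 in WT livers. The mean of 2 erythroid markers was 4.60 to 5.12 in ketogenic combined, 4.52 to 4.82 in PPARα−/− and 4.65 to 5.65 in CREB3L3−/− livers, against 6.03 to 6.99 in WT livers. That of 4 cholangiocyte markers was 5.37 to 5.91 in CREB3L3−/− livers, against 4.57 to 4.79 in WT livers. The part of these differences in the ketogenic calls was not tested.

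Deleting PPARα as well as CREB3L3 was compared directly with deleting CREB3L3 alone. Ketogenic combined knockouts had 13 genes higher and 13 lower than CREB3L3−/− livers (all genes, 10.6% higher and 17.2% lower). The median was 0.06, beside 0.05 over all genes. When only these groups were fitted, 6 were higher and 2 lower. The largest increases were in *Mrpl23* (1.23 ± 0.087), *Mrpl20* (1.15 ± 0.26), *Mrps31* (0.96 ± 0.10, adjusted p = 3.3e-08), *Mrps9* (0.78 ± 0.12) and *Mrps35* (0.60 ± 0.11). The largest decreases were in *Mrpl33* (−0.80 ± 0.11), *Mrps25* (−0.80 ± 0.15), *Mrpl49* (−0.70 ± 0.16), *Mrps21* (−0.66 ± 0.12) and *Mrpl45* (−0.58 ± 0.12).

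The test of whether the PPARα and CREB3L3 deletions add up on the log2 scale, the interaction among the 4 ketogenic genotypes, was passed by 9 of the 74 genes, 4 positive and 5 negative (all genes, 8.20% and 13.0%), or 6 and 3 after repeated quantile normalization. It was 0.93 ± 0.18 for *Mrps9*, 0.91 ± 0.16 for *Mrps35*, 0.79 ± 0.15 for *Mrps31* and 0.70 ± 0.12 for *Mrpl9*, for each of which the CREB3L3−/− difference was negative. On the negative side were *Mrpl33* (−0.93 ± 0.17), *Mrps25* (−0.89 ± 0.21), *Mrpl40* (−0.61 ± 0.099), *Mrpl52* (−0.46 ± 0.12) and *Mrpl58* (−0.44 ± 0.095). *Mrps9* shows the sum behind such a value: it read 7.19, 7.19, 7.58 and 7.57 in combined knockouts, 7.17, 6.72 and 6.98 in PPARα−/−, 6.76, 6.57, 6.62 and 6.47 in CREB3L3−/−, and 7.11, 7.05, 7.28 and 7.03 in WT livers, so that the mean of each single knockout was below that of WT and the mean of the combined knockout above it. Without replicate 1 of the ketogenic CREB3L3−/− group 14 genes passed.

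Set against fasting within a genotype, the ketogenic diet went with higher levels of many of these genes. In combined knockouts 28 genes were higher and 0 lower (all genes, 7.85% higher and 9.53% lower), with a median log2 difference of 0.25 and 65 of 74 positive. In PPARα−/− mice 21 were higher and 0 lower (all genes, 5.83% and 5.54%), the median was 0.30 and 69 were positive. In CREB3L3−/− mice 11 were higher and 6 lower (all genes, 19.3% and 13.0%), the counts being 15 and 4 after median centring, and the median of 0.04 became −0.03 after repeated quantile normalization. In WT mice 11 were higher and 0 lower (all genes, 3.60% and 1.63%), the median was 0.19 and 61 were positive. Over all genes the medians were 0.03, 0.01, −0.05 and 0.01 in combined, PPARα−/−, CREB3L3−/− and WT mice. In the same order, 10191, 9886, 8287 and 9868 of 18820 differences were positive. The count in WT mice became 7 without replicate 4 of the ketogenic group, and the 17 calls in CREB3L3−/− mice became 11 without replicate 2 of the ketogenic group. With only the compared groups in the fit, 16, 8 and 6 genes were higher and 0 lower in combined, PPARα−/− and WT mice, and 5 higher and 3 lower in CREB3L3−/− mice. Both subunits took part, with 8 of 25 small-subunit and 19 of 48 large-subunit genes higher in combined knockouts, 7 and 14 in PPARα−/− mice, and 3 and 8 in WT mice.

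In WT mice the largest difference was that of *Mrps27*, a small-subunit protein with RNA-binding repeats, which measured 6.90, 7.17, 7.29 and 7.15 in ketogenic and 6.18, 6.11, 6.30 and 6.53 in fasted livers (0.85 ± 0.14, adjusted p = 0.000459). *Mrpl38* (0.59 ± 0.097), *Mrps22* (0.57 ± 0.096), *Mrpl19* (0.54 ± 0.11), *Mrpl14* (0.50 ± 0.11), *Mrpl39* (0.49 ± 0.082) and *Mrpl10* (0.38 ± 0.064) followed. Of the 11 genes higher in WT mice, 4 were also among the 21 of PPARα−/− mice (*Mrpl14*, *Mrpl19*, *Mrps18a* and *Mrps27*), 3 were among the 11 of CREB3L3−/− mice (*Mrpl19*, *Mrps15* and *Mrps18a*), and 0 were among the 28 of combined knockouts. In combined knockouts *Mrpl28* (0.48 ± 0.14), *Mrps27* (0.35 ± 0.14) and *Mrpl19* (0.31 ± 0.11) were higher without passing. The means of *Mrpl14*, *Mrpl32*, *Mrps15* and *Mrps22* were higher too. Those of *Mrpl10*, *Mrpl38*, *Mrpl39* and *Mrps18a* were lower. *Mrpl38* read 8.51, 8.50, 8.24 and 8.44 in ketogenic and 8.68, 8.67, 8.76 and 8.49 in fasted combined knockouts. The difference between the lists as a whole was not tested. The lists of PPARα−/− and combined knockout mice shared 12 genes. No gene was called higher in all 4 genotypes, 7 were called higher in 3 of them (*Mrpl19*, *Mrpl40*, *Mrpl52*, *Mrpl54*, *Mrpl58*, *Mrps18a* and *Mrps28*), and 29 were called higher in none. Neither these counts nor the overlaps above were made over all genes.

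Among combined knockouts the diet difference was largest for *Mrpl20* (1.48 ± 0.26), *Mrpl23* (1.30 ± 0.087), *Mrpl54* (0.99 ± 0.095), *Mrps28* (0.83 ± 0.080), *Mrps26* (0.75 ± 0.17) and *Mrps36* (0.74 ± 0.16), and *Mrpl12* differed by 0.71 ± 0.086, reading 8.80, 8.80, 9.16 and 8.85 on the diet and 8.31, 8.07, 8.02 and 8.36 after fasting. In WT mice *Mrpl12* read 8.84, 8.86, 9.06 and 8.95 on the diet and 8.77, 8.71, 8.74 and 8.86 after fasting, a difference that was not called. *Mrps28* measured 8.32, 8.26, 8.34 and 8.33 in ketogenic combined knockouts and 7.47, 7.53, 7.51 and 7.40 in fasted ones, without overlap and with little spread. In CREB3L3−/− mice the diet went with lower *Mrps31* (−0.82 ± 0.10), *Mrpl15* (−0.66 ± 0.12), *Mrps35* (−0.55 ± 0.11), *Mrps5* (−0.39 ± 0.090), *Mrpl9* (−0.39 ± 0.085) and *Mrps2* (−0.37 ± 0.096). On the other side were *Mrps25* (0.79 ± 0.15), *Mrpl33* (0.75 ± 0.11), *Mrps11* (0.73 ± 0.12) and *Mrpl40* (0.68 ± 0.067).

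Whether a knockout effect itself differed between the regimens was tested as the ketogenic effect minus the fasted effect. For the combined knockout it was passed by 9 genes upward and 4 downward (all genes, 3.40% and 6.36%), led by *Mrpl20* (2.14 ± 0.36), *Mrpl23* (1.12 ± 0.12) and *Mrpl54* (0.89 ± 0.13) and, downward, by *Mrpl38* (−0.81 ± 0.14). For PPARα−/− mice 6 were upward and 0 downward (all genes, 2.09% and 2.82%), led by *Mrpl23* (1.36 ± 0.13) and *Mrpl15* (0.77 ± 0.19). For CREB3L3−/− mice 2 were upward and 10 downward (all genes, 10.6% and 8.30%), with *Mrpl33* at 0.77 ± 0.16, *Mrps27* at −0.85 ± 0.20, *Mrps35* at −0.83 ± 0.15 and *Mrps5* at −0.70 ± 0.13.

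The 3 paralogs of bacterial protein S18 have separate places in the particle, *Mrps18b* and *Mrps18c* in the small subunit and *Mrps18a* in the large, and they did not move as a set. *Mrps18a* was higher on the ketogenic diet in PPARα−/− (0.34 ± 0.089), CREB3L3−/− (0.30 ± 0.077) and WT mice (0.34 ± 0.077) but not called in combined knockouts, which read 8.22, 8.15, 8.27 and 8.12 on the diet and 8.38, 8.16, 8.36 and 8.30 after fasting. Neither *Mrps18b* nor *Mrps18c* was called in any comparison of diet or genotype. Of all 74 genes, 38 were not called in any of the 6 knockout comparisons with WT, and 18 were not called in any of the 13 comparisons. The same counts were not made over all genes, so these do not set the family apart.

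Other parts of mitochondrial gene expression were read from lists of genes. On the ketogenic diet 7.44% of all genes were higher and 10.3% lower in combined knockouts. These shares were 6.45% and 7.15% in PPARα−/− livers, and 16.7% and 11.9% in CREB3L3−/− livers. Of 14 measured mitochondrial translation factors, on the ketogenic diet 9 were lower in combined knockouts, 5 in PPARα−/− and 9 in CREB3L3−/− livers, and 0 were higher in any. In combined knockouts *Gfm2* (−0.99) and the elongation factor *Tufm* (−0.76) were among them, as log2 differences from WT. In CREB3L3−/− livers the initiation factors *Mtif3* (−0.99) and *Mtif2* (−0.75), the elongation factor *Gfm1* (−0.68) and the mRNA-binding *Lrpprc* (−0.63) were among them. Of 12 genes for transcription and maintenance of mitochondrial DNA, 4 were lower in combined knockouts, 2 in PPARα−/− and 9 in CREB3L3−/− livers, the last including the polymerase subunit *Polg2* (−0.99), the helicase *Twnk* (−0.73) and the transcription factors *Tfb2m* (−0.56) and *Tfam* (−0.39). Of 21 mitochondrial aminoacyl-tRNA synthetases and related enzymes, 2 were higher and 8 lower in combined knockouts, 3 and 3 in PPARα−/−, and 2 and 8 in CREB3L3−/− livers. Of 23 assembly factors, 3 were higher and 6 lower in combined knockouts, 3 and 0 in PPARα−/−, and 0 and 7 in CREB3L3−/− livers. The helicase *Ddx28*, an assembly factor of the large subunit, was higher by 1.27 in combined and 0.94 in PPARα−/− livers. The rRNA methyltransferase *Nsun4* was lower in combined knockouts (−0.80). Of 3 further measured proteins of the mitochondrial ribosome that do not carry the family name, *Ptcd3* was lower in ketogenic combined knockouts (−0.51) and *Dap3* higher in CREB3L3−/− livers (0.44).

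The genes for 79 subunits of the respiratory chain and ATP synthase, encoded in the nucleus, and for 70 proteins of the cytosolic ribosome gave other counts in the same comparisons. Beside these counts stand the shares of all genes called higher and lower. They were 7.44% and 10.3% in combined, 6.45% and 7.15% in PPARα−/−, and 16.7% and 11.9% in CREB3L3−/− livers. Of the 79 subunits 9 were higher and 8 lower in ketogenic combined knockouts, 6 and 7 in PPARα−/−, and 0 and 61 in CREB3L3−/− livers, where their median log2 difference was −0.48 beside the −0.13 of the mitochondrial ribosomal protein genes. Of the 70 cytosolic ribosomal protein genes 64 were higher in combined knockouts, 62 in PPARα−/− and 59 in CREB3L3−/− livers, with medians of 0.76, 0.70 and 0.53, whereas those of the mitochondrial family were −0.08, −0.01 and −0.13. Transcripts made in the mitochondrion itself were not reached, since 0 of 15 had a probe set with a symbol of its own.

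**Figure D5:**
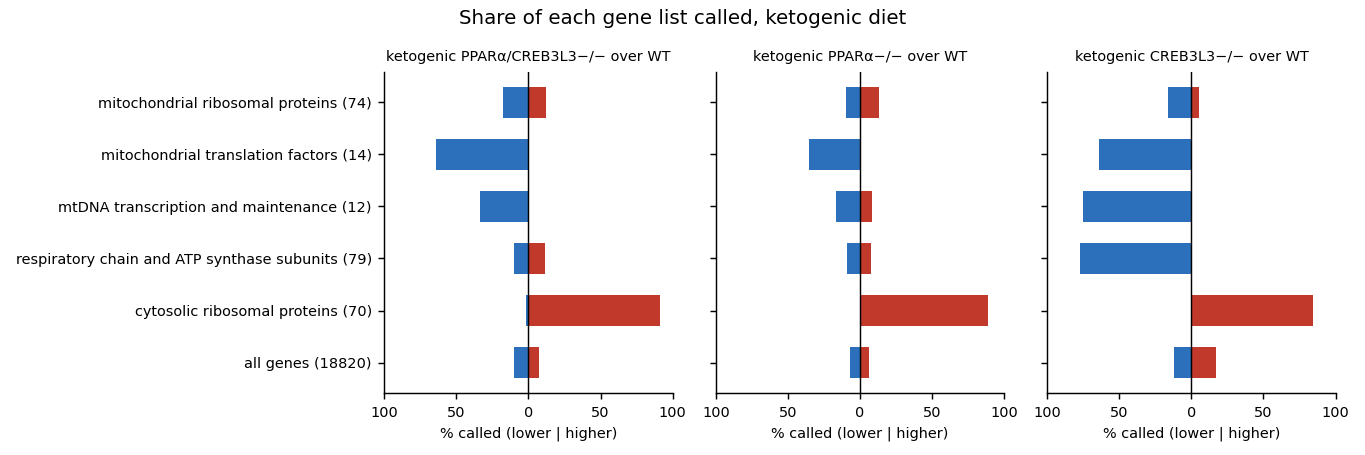
Percentage of each gene list called higher (red, right of 0) or lower (blue, left of 0) on the ketogenic diet in combined PPARα/CREB3L3−/−, PPARα−/− and CREB3L3−/− livers against WT, with the number of genes in parentheses. The 74 mitochondrial ribosomal protein genes have calls on both sides, whereas cytosolic ribosomal protein genes are called higher in all 3 groups (64, 62 and 59 of 70) and respiratory chain subunits lower in CREB3L3−/− livers (61 of 79). Of all genes 7.44%, 6.45% and 16.7% are called higher and 10.3%, 7.15% and 11.9% lower, in the order of the groups.

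Of 12 factors known to act on nuclear genes for mitochondrial proteins or on growth, *Myc* was higher in all 3 ketogenic knockouts, by 2.23 in combined, 2.86 in PPARα−/− and 2.26 in CREB3L3−/− livers on the log2 scale. *Tfam* was lower in each (−0.30, −0.32 and −0.39). The coactivator *Ppargc1b* (−1.41) and *Gabpa* (−0.34), the ETS subunit of GABP, were lower and the coactivator *Pprc1* higher (0.60) in CREB3L3−/− livers. The transcripts of *Nrf1*, *Yy1*, *Gabpb1*, *Esrra* and *Ppargc1a* were not called in any of these 3 comparisons. In fasted combined knockouts *Esrra* was lower (−0.62) and *Myc* higher (1.82). Results of the remaining factors of this list are not given here.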

How the data were processed

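RNA from 30 mouse livers had been hybridised to Affymetrix Mouse Gene 1.1 ST arrays. The authors deposited log2 signals made by robust multi-array average (RMA, version not given in the sources used here), which adjusts background, equalises the distributions of the arrays and summarises the probes of a probe set. RMA makes arrays comparable but compresses differences of dim probe sets. Probe sets carried the manufacturer's identifiers, of which 21218 were annotated to 1 symbol, 1881 to several and 12457 to none. Some identifiers, such as those of *Mrpl41*, *Mrpl48*, *Mrpl51*, *Mrps33* and *Mrps36*, fell in number among those of members on other chromosomes. Where these probe sets map was not checked. The probe set with the highest mean over 30 arrays stood for a gene. The genes studied and the lists set beside them were chosen with earlier results of these data known.

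The log2 signals of all 35556 probe sets were fitted in limma 3.58.1 (R 4.3.3, package data.table in version 1.17.8) with 1 mean for each of 8 groups and a moderated variance with an intensity trend, leaving 22 residual degrees of freedom. Calls needed P below 0.001, the threshold of the study's methods, whose own P came from another moderated test on remapped probe sets, and a fold change beyond 1.2, which the study used for part of its gene selections. Adjusted p-values (Benjamini-Hochberg) cover all probe sets, and percentages for all genes refer to 18820 genes. The procedure was tested on simulated data. The differences between fasted and ketogenic effects were added after seeing the data. Named were, per comparison, up to 12 called genes in each direction and genes called in all 3 ketogenic knockouts. So were the S18 paralogs, most of the regulators and up to 4 genes of every other list. Errors are SE of a difference in the fit, from a moderated variance pooled over the 8 groups. They do not measure the spread within the groups compared, and the number of arrays limits their precision. No scan batch was given in the sources used here. Replicate numbers of the labels did not pair livers, since deviations of same-numbered arrays correlated at a mean of 0.00742. Alternatives were the arrays of the compared groups alone, a replicate block, no variance trend, other scalings, call rules and probe set rules, and leaving out each liver in turn.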

Additional observations from a re-analysis of the deposited data

Results flagged for a closer look

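Among 144 groups of 4 livers examined for some of the genes named, 5 held a single liver far from the others, where chance gives about 1 group in 20. *Mrpl12* was at 9.16 in replicate 3 of the ketogenic combined knockouts, the others being at 8.80 to 8.85. *Mrpl20* was at 8.49 in replicate 4 of the ketogenic WT mice, the others being at 7.64 to 7.72. *Mrpl39* was at 8.39 in replicate 3, and *Mrps9* at 6.97 in replicate 2, of the fasted combined knockouts, where the other livers were at 8.58 to 8.61 and 6.57 to 6.64. *Mrps27* was at 6.37 in replicate 3 of the ketogenic combined knockouts, the others being at 6.70 to 6.76.

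The effect of deleting PPARα differed with the presence of CREB3L3 on the ketogenic diet (limma interaction on the log2 scale, adjusted p in parentheses) for *Mrps9* at 0.93 (0.00021), *Mrps35* at 0.91 (7.6e-05), *Mrps31* at 0.79 (0.00023), *Mrpl33* at −0.93 (0.00011), *Mrps25* at −0.89 (0.0024), *Mrpl40* at −0.61 (3.1e-05) and *Mrpl52* at −0.46 (0.005). *Mrpl9* and *Mrpl58* also passed that test, as given above.

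Knockout effects also differed between the ketogenic and the fasted regimen, given as the ketogenic minus the fasted effect. Further genes, such as *Mrpl38* in the combined knockout, are given above. For the combined knockout the difference was 2.14 for *Mrpl20* (0.00014), 1.12 for *Mrpl23* (3.2e-07), 0.89 for *Mrpl54* (3.1e-05), 0.57 for *Mrps28* (0.00085), 0.55 for *Mrpl12* (0.0023), −0.53 for *Mrpl39* (0.0021) and −0.45 for *Mrps18a* (0.0052). For PPARα−/− mice it was 1.36 for *Mrpl23* (3e-07), 0.77 for *Mrpl15* (0.0096), 0.66 for *Mrpl54* (0.004) and 0.53 for *Mrpl52* (0.0068). For CREB3L3−/− mice it was 0.77 for *Mrpl33* (0.00069), 0.50 for *Mrpl40* (0.00024), −0.85 for *Mrps27* (0.0021), −0.83 for *Mrps35* (0.00018), −0.58 for *Mrpl14* (0.0053), −0.57 for *Mrps31* (0.0048), −0.55 for *Mrpl39* (7e-04) and −0.53 for *Mrps22* (0.0048).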

How the results depend on the processing

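No call on a named gene reversed under any alternative run. Of 154 such calls 99 were kept in all fits that left out 1 liver of the groups compared. Fitting the compared groups alone, with fewer samples for the variance, kept 84 and gave counts of 14 (ketogenic combined against WT), 10 (PPARα−/−), 8 (CREB3L3−/−), 8 (combined against CREB3L3−/−, 6 higher and 2 lower) and 0 (combined against PPARα−/−), and for the diet 16 in combined knockouts, 8 in PPARα−/−, 8 in CREB3L3−/− and 6 in WT mice. Median centring gave 14 in fasted combined knockouts and 18 for the diet in WT mice. Repeated quantile normalization gave 15 in fasted combined and 5 in fasted PPARα−/− livers. The cause was not tested. With an adjusted p below 0.05 and the same fold, the counts were 16 in fasted combined, 5 in fasted PPARα−/−, 25 in ketogenic CREB3L3−/−, 32 and 17 for the diet in PPARα−/− and WT mice, and 20 for the interaction. Without the fold criterion they were 18, 5, 27, 32, 17 and 20, and 28 for the diet in CREB3L3−/− mice. Over all 18820 genes that last rule passed 2835, 1541, 7543, 3483, 1585 and 5799, and 8387 for the diet in CREB3L3−/− mice. For the other alternatives, counts over all genes are not given here.

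Leaving out each liver in turn gave 3 to 8 calls in fasted combined, 2 to 4 in fasted PPARα−/− and 0 to 0 in fasted CREB3L3−/− livers, 18 to 21 in ketogenic combined, 13 to 17 in PPARα−/− livers, 12 to 21 in livers without CREB3L3 alone, 21 to 27 for combined against CREB3L3−/−, 0 to 5 for combined against PPARα−/−, 7 to 14 for the interaction, and for the diet 21 to 30 in combined, 14 to 19 in PPARα−/− mice, 11 to 17 in CREB3L3−/− mice and 7 to 15 in WT mice. Replicate numbers did not pair livers (same-numbered arrays correlated at −0.111 to 0.121). With them as a replicate block the counts were 7, 3 and 0 in fasted combined, PPARα−/− and CREB3L3−/− livers, 21, 15 and 16 in the ketogenic ones, 26 and 3 for combined against CREB3L3−/− and PPARα−/−, 28, 20, 16 and 10 for the diet in combined, PPARα−/−, CREB3L3−/− and WT mice, and 8 for the interaction. Dim genes such as *Mrps25* and *Mrpl33* lie nearer the array median, where the summary compresses differences.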
